A study of Homo sapiens with 12 samples.

Results

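The genes described here run the first gate of the cell cycle: the D cyclins CCND1, CCND2 and CCND3, their kinases CDK4 and CDK6, the kinase inhibitors CDKN1B, CDKN2C and CDKN2D, and the pocket proteins RB1 and RBL2. These 10 genes were taken as a named list, chosen with earlier results of these data known. A probe was kept where its detection score, which is 1 for the brightest probes, was above 0.99 on 3 or more of the 12 arrays. Of the 15 probes on the array for these genes, 12 passed and covered all 10 genes, out of 14051 tested probes among 48803 and 11057 tested genes with a symbol. The 3 probes left out, 2 for CDKN2C and 1 for CDKN2D, were detected on no array.

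Messenger RNA was measured in CHRF288-11, an established human megakaryoblastic cell line, on Illumina BeadChips with Cy3-labelled RNA amplified from 500 ng of total RNA. All cultures were kept without serum for 16 h, with glutamine at 2 mM. The 4 groups were untreated cells and cells exposed to recombinant Wnt3a (150 ng/mL), to recombinant Wnt5a (1200 ng/mL) or to the pair at those doses, and the treatment lasted 8 h. Each group had 3 arrays, which the series calls biological replicates, and all came from this single line. With a single dose per ligand and without a vehicle group, the ligand and the amount of protein added cannot be told apart. In bulk RNA, fewer cells of a type and less RNA per cell cannot be told apart either.

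D cyclins bind CDK4 and CDK6, and the active kinase phosphorylates RB1 and its relatives, which then let go of E2F factors so that S phase genes are transcribed. The INK4 inhibitors CDKN2C and CDKN2D hold CDK4 and CDK6 directly, while CDKN1B inhibits cyclin E and CDK2 and can also sit on cyclin D complexes. Megakaryocytes replicate their DNA repeatedly without dividing, a process in which cyclin D3 has been implicated in mouse. CCND1 is widely cited as a target of beta-catenin with TCF factors in colon cancer cells, and Wnt3a is a ligand known to stabilise beta-catenin, while Wnt5a mostly signals by other routes.

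On the 6 arrays of chip 1 (Untreated 2 and 3, Wnt3a 2 and 3, Wnt5a 1 and 3) mean signals were 364.4 to 378.3, and on the 6 of chip 2 (Untreated 1, Wnt3a 1, Wnt5a 2 and the whole combination) they were 312.1 to 347.5. The combination therefore shared a chip with only 1 array of each other group, and chip was a term in every fit. For the 12 probes the chip term had adjusted p-values of 0.105 to 0.835 in limma. Of 20 megakaryocyte markers 18 were detected on all 12 arrays, while the platelet chemokines PF4 and PPBP were detected on none. Their summed signal was 42940.9 to 51403.3 in untreated cells, 47529.8 to 48726.4 with Wnt3a, 44828.8 to 49555.6 with Wnt5a and 41102 to 46947.6 with both. On all arrays 6 of 11 erythroid, 2 of 11 monocyte and granulocyte, 5 of 10 lymphoid and 1 of 8 fibroblast and endothelial markers were detected. Only the summed erythroid signal separated a treated group from untreated cells, at 1692.1 to 1755.8 with both ligands and 1768 to 2019.2 untreated, and all 3 of those combination arrays were on the dimmer chip. After normalization 1 of 6 tested erythroid markers rose and 0 fell with both ligands, and 1 rose and 1 fell with Wnt5a. The alpha globin genes HBA1 and HBA2 were among those detected on no array. In limma 1, 2 and 4 of the 18 megakaryocyte markers fell with Wnt3a, Wnt5a and both, and 0 rose, beside 0.569%, 2.33% and 3.32% of all tested probes called lower. In the other marker lists 1 lymphoid gene rose with Wnt3a and 1 monocyte or granulocyte gene fell with both. These sums are signals before normalization, and their part in the results was not tested.

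The start sites of the genes for both D cyclin kinases are printed because CDK6 changed and because they differ in the E-box CACGTG, the site that MYC and MYCN, described further on, are known to bind. RefSeq windows of GRCh38.p14 reach from 250 bases before to 50 after each start, read along the gene. E-box matches are in capitals.
CDK4, chr12:57752261-57752560, minus strand: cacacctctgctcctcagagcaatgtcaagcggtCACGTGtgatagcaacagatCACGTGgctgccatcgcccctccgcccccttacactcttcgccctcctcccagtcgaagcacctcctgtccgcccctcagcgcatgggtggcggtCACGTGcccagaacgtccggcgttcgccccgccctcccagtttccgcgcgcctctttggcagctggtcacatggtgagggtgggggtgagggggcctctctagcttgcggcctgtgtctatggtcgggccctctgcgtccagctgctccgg
CDK6, chr7:92833910-92834209, minus strand: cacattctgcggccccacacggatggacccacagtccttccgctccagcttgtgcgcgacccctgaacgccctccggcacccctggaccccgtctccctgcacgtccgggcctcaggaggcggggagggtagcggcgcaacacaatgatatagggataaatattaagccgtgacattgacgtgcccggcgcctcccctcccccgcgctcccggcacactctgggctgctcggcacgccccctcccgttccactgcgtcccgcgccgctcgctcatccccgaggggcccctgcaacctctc
CDK6, chr7:92836524-92836823, minus strand: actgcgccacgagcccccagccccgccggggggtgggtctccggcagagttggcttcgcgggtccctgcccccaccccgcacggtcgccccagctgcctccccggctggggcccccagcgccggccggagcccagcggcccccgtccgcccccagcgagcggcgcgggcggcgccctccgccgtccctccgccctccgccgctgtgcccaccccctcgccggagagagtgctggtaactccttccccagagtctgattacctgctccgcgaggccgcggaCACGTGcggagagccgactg
The CDK4 window held 3 matches, whose first bases lie at -216, -196 and -101 from the start. Of the pair of CDK6 starts, the one at the higher coordinate held 1 match, with its first base at 31, and the other held none. Windows were at hand for 8 of the 10 genes, all but CCND1 and CCND2, with 14 windows in all, and CDKN2C had 1 match in each of 2 further windows. CACGTG, which reads the same on both strands, occurred in 7.26% of 35116 windows. None of the 14, which do not include CCND1 or CCND2, held CTTTGA, the core of TCF and LEF sites, on either strand, against 12.9% of all windows. TGANTCA, the AP-1 site, occurred in 1 of the 14 against 7.71%, and GGGCGG, the GC box, in 9 of the 14 against 45%. The AP-1 match lay in the only RB1 window at hand (chr13:48476200-48476499), and no other RB1 start was looked at. These are matches of letters and do not show binding.

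Among the D cyclins, CCND1 fell with each treatment and CCND2 fell wherever Wnt5a was present, while CCND3 did not pass in any comparison. CCND1 lay close to the limit of detection. Its signal, in arbitrary units before normalization, was 151.8, 172 and 195.7 on the untreated arrays and 125.2, 140.1 and 135.3 with Wnt3a. It was 119.5, 105.3 and 109.3 with Wnt5a, and 94.2, 91.1 and 107.3 with both. Every untreated array lay above every Wnt3a array, every Wnt3a array above every Wnt5a array, and the Wnt5a and combination arrays overlapped. The share of all tested probes whose groups separate in this way is not given. Such separations, here and further on, are descriptions only. The means were 173 ± 22.0, 134 ± 7.61, 111 ± 7.32 and 97.5 ± 8.60 (SD, n = 3). The lowest signal that counted as detected on an array was 90.5 to 102.2, so that CCND1 ranged from 0.960 to 1.99 times that floor. CCND1 was detected on 3 of 3 arrays in each group but the combination, where it was detected on 2 of 3, with the array Both 2 below the floor.

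**Figure D1:**
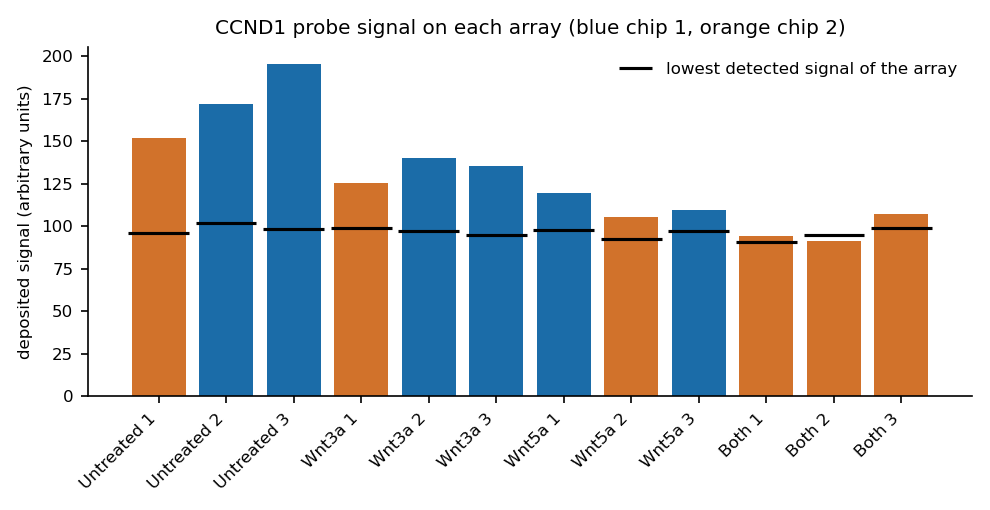
Deposited signal of the CCND1 probe (arbitrary units) on each of the 12 arrays, as bars coloured by chip, with a black line at the lowest detected signal of the array. The bars step down from 151.8 to 195.7 untreated to 91.1 to 107.3 with both ligands, where Both 2 ends under its line.

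After background correction and quantile normalization, CCND1 was at 6.84, 6.72 and 7.06 on the log2 scale in untreated cells and at 6.20, 6.28 and 6.30 with Wnt3a. The values were 5.98, 5.81 and 5.64 with Wnt5a, and 5.56, 5.28 and 5.77 with both. The order of the groups was the same as for the signals. Differences between groups were tested with limma and adjusted over all 14051 probes by the Benjamini-Hochberg method, with 0.05 as the threshold, and are given as log2 values with their standard error (SE, n = 3 per group). Against untreated cells CCND1 fell by 0.61 ± 0.13 with Wnt3a (adjusted p = 0.0335), by 1.06 ± 0.13 with Wnt5a (adjusted p = 0.000435) and by 1.31 ± 0.15 with both (adjusted p = 0.000325). The 3 comparisons share the untreated arrays. Within chips the difference was -0.60 and -0.65 for Wnt3a, -1.08 and -1.03 for Wnt5a, and -1.31 on chip 2 for both. On chip 2 untreated cells and each single ligand had 1 array, for this and all later probes. Within-chip values come from the same arrays as the fit and are no independent check. The fall with Wnt3a no longer passed when Untreated 1 or 3 or any of the 3 Wnt3a arrays was left out (adjusted p = 0.102 to 0.169), nor when undetected probes were added to the test (adjusted p = 0.0995). The falls with Wnt5a and with both passed in each of 19 alternatives, with adjusted p-values up to 0.00459 and 0.0104.

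The size of the CCND1 fall depended on how the signal near the floor was handled. Without background correction it was -0.35, -0.57 and -0.67 for Wnt3a, Wnt5a and both. In the authors' log2 table, fitted the same way, it was -0.22, -0.35 and -0.40. With median scaling in place of quantile normalization it was -0.62, -1.06 and -1.29. All 9 of these values were negative and passed.

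**Figure D2:**
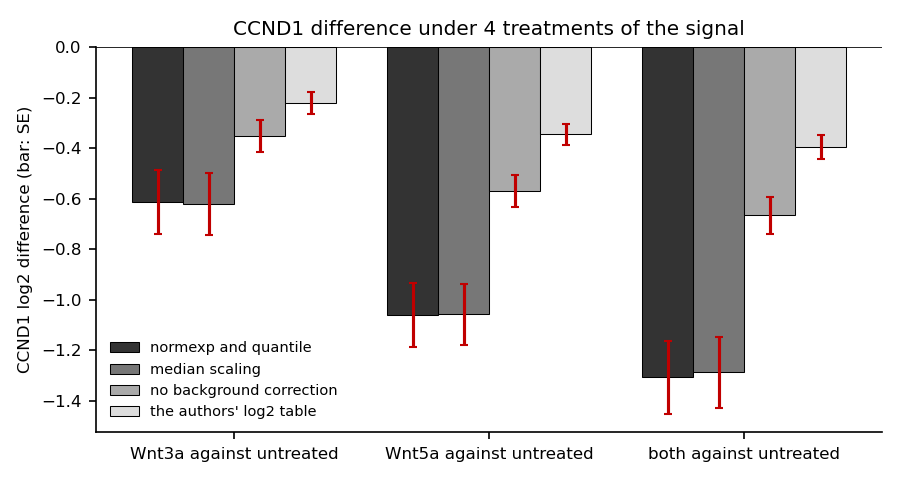
Log2 difference of CCND1 from untreated cells (vertical axis, bars with SE) in 3 comparisons, with 4 ways of treating the signal as shades. All 12 bars are negative, and those without background correction (-0.35 to -0.67) and from the authors' table (-0.22 to -0.40) are shorter than those with it.

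CCND2 was far above the limit of detection, with medians of 35.0 and 12.7 times the floor for its 2 probes. Probe 1 was at 11.90, 11.90 and 11.91 in untreated cells, 11.86, 11.77 and 11.84 with Wnt3a, 11.59, 11.74 and 11.57 with Wnt5a, and 11.55, 11.69 and 11.64 with both. Probe 2 was at 10.48, 10.41 and 10.36 untreated, 10.42, 10.18 and 10.26 with Wnt3a, 10.02, 10.19 and 9.95 with Wnt5a, and 10.12, 10.12 and 10.09 with both. On both probes all arrays with Wnt5a, alone or combined, lay below all untreated arrays. With Wnt5a, CCND2 fell by 0.27 ± 0.06 on probe 1 (adjusted p = 0.0281) and by 0.36 ± 0.06 on probe 2 (adjusted p = 0.0037). With both ligands it fell by 0.32 ± 0.07 (adjusted p = 0.0198) and 0.42 ± 0.07 (adjusted p = 0.00367). With Wnt3a alone neither probe passed, at -0.08 ± 0.06 (adjusted p = 0.695) and -0.13 ± 0.06 (adjusted p = 0.397).

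Within chips the CCND2 difference for Wnt5a was -0.32 and -0.16 on probe 1 and -0.41 and -0.28 on probe 2, and for both ligands on chip 2 it was -0.27 and -0.37. The probe 2 calls passed in each of 20 alternatives. Those of probe 1 were less firm: the Wnt5a call was lost without any 1 of the untreated arrays, Wnt5a 1 or Wnt5a 3 (adjusted p = 0.0595 to 0.128), and the combination call without Untreated 1, Both 1 or Both 3 (adjusted p = 0.09, 0.0563 and 0.05). With undetected probes in the test the probe 1 values were 0.0757 and 0.0563.

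CCND3, with a median of 217.8 times the floor, ranged from 14.20 to 14.62 over the 12 arrays. Its differences were -0.12 ± 0.08 with Wnt3a (adjusted p = 0.579), -0.17 ± 0.08 with Wnt5a (adjusted p = 0.28) and -0.23 ± 0.09 with both (adjusted p = 0.138). The 95% intervals of the Wnt5a and combination values ran from -0.33 to -0.0018 and from -0.42 to -0.04. All arrays with Wnt5a, alone or combined, were below all untreated arrays, but the difference did not pass after adjustment.

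**Figure D3:**
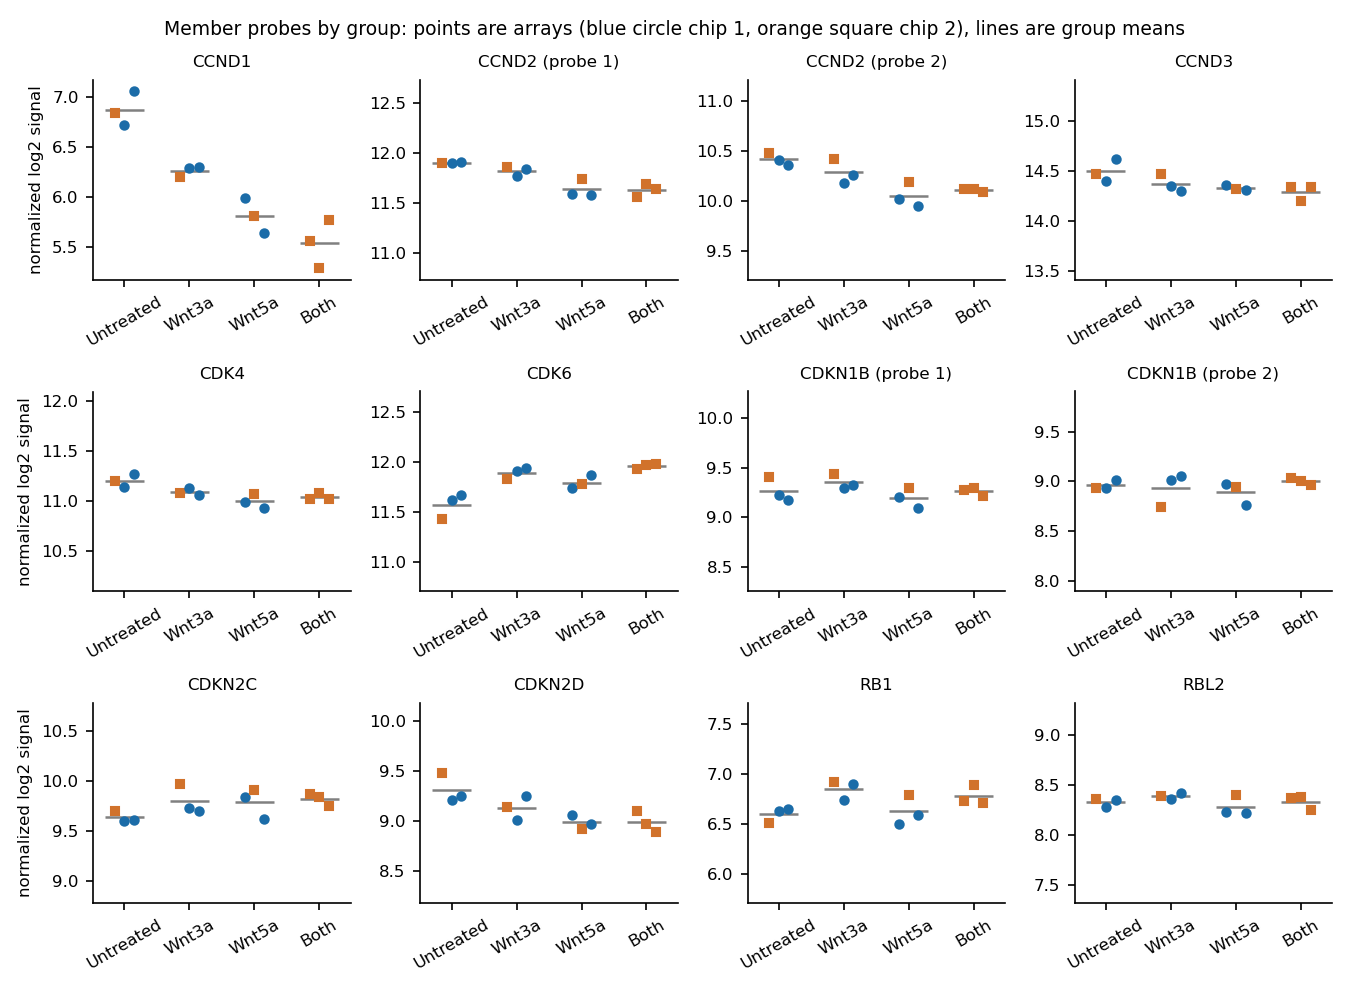
Normalized log2 signal of the 12 probes in 4 groups. Points are arrays (blue circles chip 1, orange squares chip 2), lines are group means, and every panel spans the same number of log2 units. CCND1 has the widest spread of values, from 5.28 to 7.06, and CDK6 stands higher in all treated groups than untreated.

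The kinases differed: CDK6 rose, and CDK4 did not pass in any comparison. CDK6 had signals of 2464.3, 3498.9 and 3578.3 in untreated cells and 3711.4, 4241.1 and 4278.5 with Wnt3a. They were 3619.9, 3249.8 and 3992.9 with Wnt5a, and 3427.9, 3815.7 and 4020.1 with both. Untreated 1 was the lowest of the 12 arrays, and it lies on the dimmer chip with all 3 combination arrays. Normalized values were 11.43, 11.62 and 11.67 untreated, 11.83, 11.91 and 11.95 with Wnt3a, 11.74, 11.78 and 11.87 with Wnt5a, and 11.93, 11.97 and 11.98 with both. On this scale every treated array lay above every untreated array.

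CDK6 rose by 0.32 ± 0.06 with Wnt3a (adjusted p = 0.0285) and by 0.46 ± 0.07 with both ligands (adjusted p = 0.00317), a fold of 1.25 and 1.38. With Wnt5a the difference was 0.22 ± 0.06 and did not pass (adjusted p = 0.0716), although it passed in 4 of 20 alternatives. Within chips the Wnt3a difference was 0.28 and 0.40, and that of both ligands was 0.53 on chip 2. Without Untreated 1 the combination value was 0.37 and did not pass (adjusted p = 0.0868). The Wnt3a call was lost without Untreated 1 or 2 or any of the 3 Wnt3a arrays (adjusted p = 0.0821 to 0.202), without the chip term (adjusted p = 0.0619) and with undetected probes in the test (adjusted p = 0.077).

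CDK4 ranged from 10.93 to 11.27. It was lower on all treated than on all untreated arrays, by 0.11 to 0.21 on average, and passed in no comparison. The share of all tested probes that separate so is not given. The differences were -0.11 ± 0.06 with Wnt3a (adjusted p = 0.539), -0.21 ± 0.06 with Wnt5a (adjusted p = 0.0853) and -0.18 ± 0.07 with both (adjusted p = 0.154). In the authors' log2 table the same fit gave -0.20 for Wnt5a (adjusted p = 0.0114) and -0.18 for both (adjusted p = 0.0399), and without background correction -0.20 for Wnt5a (adjusted p = 0.0253), so that the call for CDK4 depends on the processing.

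None of the inhibitors passed against untreated cells. CDKN2D, an INK4 protein, was at 9.48, 9.22 and 9.25 untreated, 9.14, 9.02 and 9.25 with Wnt3a, 9.06, 8.92 and 8.97 with Wnt5a, and 9.10, 8.98 and 8.89 with both. All Wnt5a and all combination arrays were below the untreated arrays, and the Wnt3a arrays overlapped with them. The differences were -0.18 ± 0.09 (adjusted p = 0.46), -0.33 ± 0.09 (adjusted p = 0.0554) and -0.37 ± 0.10 (adjusted p = 0.0518) for Wnt3a, Wnt5a and both. The last pair lay just above the threshold and passed in 6 and 10 of 20 alternatives, over which adjusted p ran from 0.00924 to 0.286 and from 0.0105 to 0.497. For Wnt5a the difference was -0.22 within chip 1 and -0.56 within chip 2, where Untreated 1 was the highest array.

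CDKN2C, the other INK4 inhibitor here, ranged from 9.60 to 9.97 and was named by the deposited file alone. Its differences were 0.16 ± 0.07 (adjusted p = 0.372), 0.15 ± 0.07 (adjusted p = 0.287) and 0.06 ± 0.08 (adjusted p = 0.71) for Wnt3a, Wnt5a and both, and its other 2 probes, which did not reach detection, give no second reading. CDKN1B, the Cip/Kip inhibitor, had 2 tested probes that ranged from 9.09 to 9.44 and from 8.75 to 9.06. With Wnt3a they gave 0.09 ± 0.06 and -0.02 ± 0.08, with Wnt5a -0.07 ± 0.06 and -0.07 ± 0.08, and with both -0.11 ± 0.07 and 0.10 ± 0.10, with adjusted p-values of 0.385 to 0.961. The probes thus had opposite signs for Wnt3a and for both. Over the 12 arrays, adjusted for chip, they were correlated at r = -0.05, whereas the CCND2 probes were correlated at r = 0.96.

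The pocket proteins did not pass either. RB1, which holds back E2F factors until it is phosphorylated, had a median of 1.64 times the floor and ranged from 6.50 to 6.92. It gave 0.26 ± 0.09 with Wnt3a (adjusted p = 0.222), 0.03 ± 0.09 with Wnt5a (adjusted p = 0.913) and 0.13 ± 0.10 with both (adjusted p = 0.467). All Wnt3a arrays were above all untreated arrays, a separation whose share over all tested probes is not given. RBL2, a relative of RB1 that is bound to E2F factors in resting cells, had the narrowest range, 8.22 to 8.42, with differences of 0.06 ± 0.07, -0.05 ± 0.07 and -0.05 ± 0.08 (adjusted p = 0.804, 0.791 and 0.768). The largest change that its 95% intervals allow is 0.21 in either direction.

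**Figure D4:**
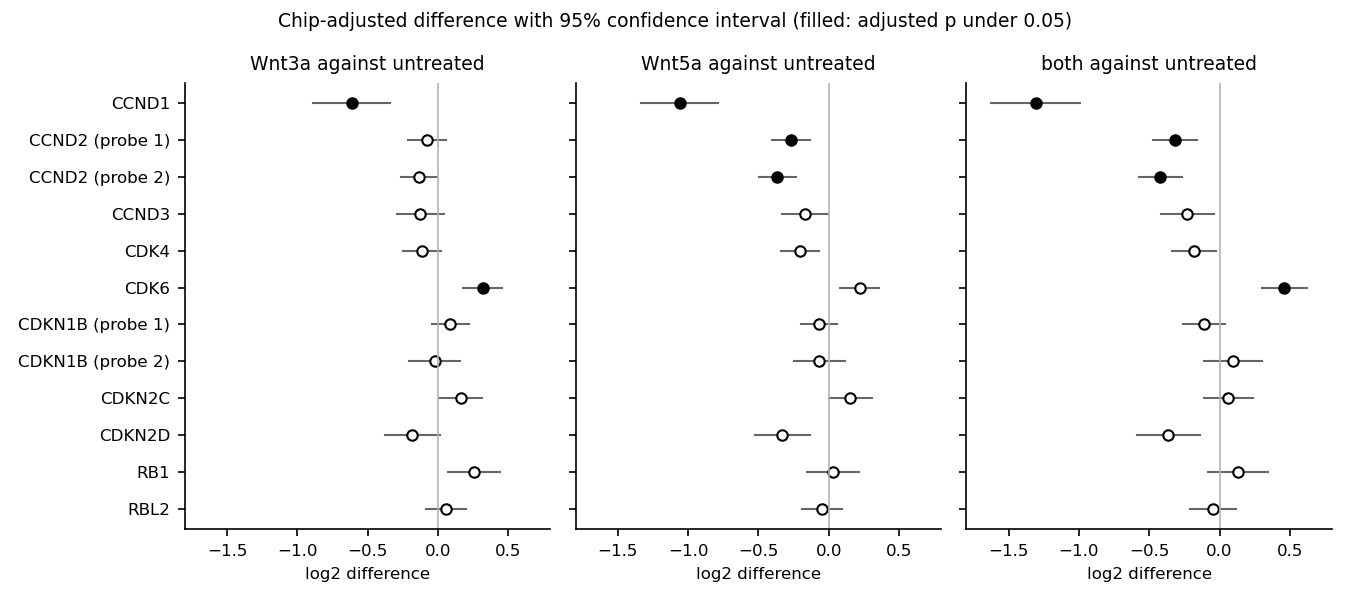
Chip-adjusted log2 difference from untreated cells (horizontal axis) for the 12 probes in 3 comparisons, with 95% confidence intervals. Filled points passed: CCND1 (-0.61) and CDK6 (0.32) with Wnt3a, CCND1 and both CCND2 probes with Wnt5a, and all of these with both ligands, where CCND1 was at -1.31.

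The genes were chosen with earlier results of these data known, so the counts beside the shares are descriptions and no test of the list. In counts, 2 of the 12 probes passed with Wnt3a (1 higher, 1 lower), beside 1.52% of all tested probes (0.947% higher, 0.569% lower). With Wnt5a 3 passed, all lower and from 2 genes, as CCND2 has 2 probes, beside 5.25% of all (2.92% higher, 2.33% lower). With both ligands 4 passed (1 higher, 3 lower, the latter again from 2 genes), beside 7.77% of all (4.45% higher, 3.32% lower). The median difference of the 12 probes was -0.05, -0.12 and -0.15, beside -0.0014, -0.0046 and -0.0099 over all tested probes. At an unadjusted p under 0.05 the counts were 5, 7 and 7. The share of all tested probes at that threshold is not given, for these counts or for later ones. The shares above are for adjusted calls and are no baseline for them. In the F test over the 4 groups CCND1 (adjusted p = 0.000338), both CCND2 probes (adjusted p = 0.0232 and 0.00333) and CDK6 (adjusted p = 0.0067) passed, which is 4 of 12 beside 8.80% of all. Leaving out Untreated 1 left 2 of the 12 in the F test and 0 in the Wnt3a comparison. Leaving out Wnt3a 1, 2 or 3 also left 0 with Wnt3a, and leaving out Untreated 2 or 3 left 1. Without Untreated 1 the combination count was 2 in place of 4.

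The next comparisons asked whether the ligands differed and whether they acted on each other. Adding Wnt5a to Wnt3a lowered CCND1 by a further 0.69 ± 0.15 (adjusted p = 0.0207) and CCND2 by 0.29 ± 0.07 on probe 2 (adjusted p = 0.0367), while CCND2 probe 1 was at -0.24 ± 0.07 (adjusted p = 0.0792). This is 2 of 12 probes, both lower, beside 4.61% of all (2.78% higher, 1.84% lower). Neither call was firm. That of CCND1 was lost without Wnt3a 1 (adjusted p = 0.167) and with undetected probes (adjusted p = 0.0653), and that of CCND2 passed in 8 of 20 alternatives and gave -0.18 with no chip term (adjusted p = 0.325). It was lost without Untreated 3, Wnt3a 1 or 3, Wnt5a 2 or 3 or any of the combination arrays (adjusted p = 0.052 to 0.296).

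Between the ligands, CCND2 probe 2 was lower with Wnt5a than with Wnt3a by 0.23 ± 0.06 (adjusted p = 0.0405, 8 of 20 alternatives past the threshold). This was 1 of 12 probes, beside 5.90% of all (3.32% higher, 2.58% lower). It was lost on leaving out Untreated 3, any Wnt3a or Wnt5a array, or Both 1 or 3 (adjusted p = 0.0524 to 0.176). CCND1 was at -0.45 ± 0.13 (adjusted p = 0.0593, 4 of 19 alternatives past the threshold), so that for CCND1 the neighbouring levels of Wnt3a and Wnt5a did not differ past the threshold, and neither did those of Wnt5a and both.

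Adding Wnt3a to Wnt5a called 0 of the 12 probes in limma, beside 0.121% of all, every one of them higher (0.121% higher, 0% lower), and 1 of the 12, CDK6, had an unadjusted p under 0.05. CDK6 was at 0.24 ± 0.07 (adjusted p = 0.343) and CCND1 at -0.25 ± 0.15, with a 95% interval from -0.56 to 0.07 (adjusted p = 0.67). The interaction, which asks whether the Wnt3a effect was different when Wnt5a was also given, was called by limma for 0 of the 12, beside 0% of all in either direction, and 1 of the 12, CDKN2C, had an unadjusted p under 0.05, at -0.25 ± 0.11 (adjusted p = 0.61). For CCND1 the interaction was 0.37 ± 0.19, with an interval from -0.05 to 0.79 (adjusted p = 0.662). The data therefore do not settle whether the falls of CCND1 with the separate ligands added up.

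Over the 12 arrays, adjusted for chip, CCND1 was correlated with CCND2 (r = 0.88 and 0.92), CCND3 (0.86), CDK4 (0.86) and CDKN2D (0.82), and inversely with CDK6 (-0.81). These values describe arrays that share the 4 groups and the normalization, so they carry the group differences given above. By the same measure the genes most like CCND1 among 11056 were the ETS factor ETV5 (r = 0.984), the fucosyltransferase FUT8 (0.975, named by the deposited file), the repressor GFI1B (0.973), the potassium channel KCNK6 (0.973) and vinculin, VCL (0.972). Those most like CCND2 (probe 1) were the glycyl-tRNA synthetase GARS1 (0.975), TMEM154 (0.972), the calcium-binding RCN1 (0.963), the RNA-binding RBM12 (0.963) and the stress-induced factor ATF3 (0.961).

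The other genes of the G1 network, taken as lists with 1 probe per gene, are given by their counts. These lists too were chosen with earlier results of these data known. Of all tested probes 1.52%, 5.25% and 7.77% were called with Wnt3a, Wnt5a and both, and the counts of each list stand beside these shares. Of 25 tested regulators of cyclin D and CDKN1B transcription, 4 passed with Wnt3a (1 higher), 4 with Wnt5a (1 higher) and 5 with both (2 higher). The list medians were -0.03, -0.0035 and -0.08, beside -0.00054, -0.00054 and -0.0017 over all tested genes. ETV5 fell by 0.60 ± 0.09 with Wnt3a (adjusted p = 0.00447), by 0.99 ± 0.09 with Wnt5a (adjusted p = 5.44e-05) and by 1.12 ± 0.10 with both (adjusted p = 8.06e-05). Its second probe also fell in all 3, but from 5.61 untreated to 5.01, 5.08 and 4.82 with Wnt3a, Wnt5a and both. CCND1 at 5.28 was already below the limit of detection, so these values are near or under the floor. MYC, the E-box factor that drives growth and cyclin D2 transcription, fell by 0.45 ± 0.06 with Wnt5a (adjusted p = 0.00103) and by 0.51 ± 0.07 with both (adjusted p = 0.00117), as did its second probe (-0.50 and -0.54). Its relative MYCN rose by 0.74 ± 0.07 with Wnt3a (adjusted p = 0.000192) and by 0.39 ± 0.08 with both (adjusted p = 0.0152), also on 2 probes. The second MYCN probe was faint, at 5.75 untreated, 6.27 with Wnt3a and 6.12 with both. MYC and MYCN thus passed in opposite directions, and with both ligands both did.

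Among the remaining regulators, GATA2, a progenitor factor, fell by 0.46 ± 0.07 with Wnt3a (adjusted p = 0.00559) and by 0.43 ± 0.08 with both (adjusted p = 0.00855), and JUN, an AP-1 subunit, fell by 0.38 ± 0.08 with Wnt3a (adjusted p = 0.034). ETS1 fell by 0.31 ± 0.07 with Wnt5a (adjusted p = 0.0274) on both of its probes. The cAMP-responsive factor CREB1 rose by 0.42 ± 0.08 with Wnt5a (adjusted p = 0.0119) and by 0.43 ± 0.10 with both (adjusted p = 0.0205), but its other 2 probes did not pass (adjusted p = 0.313 to 0.813). With both ligands against Wnt3a, 5 of the 25 fell and 0 rose, beside 4.61% of all tested probes called (2.78% higher, 1.84% lower). The falls were led by ETV5 (-0.53 ± 0.10, adjusted p = 0.0139) and LEF1, a partner of beta-catenin (-0.48 ± 0.09, adjusted p = 0.00971). The other probe of ETV5, near or under the floor, did not pass in that comparison (-0.19, adjusted p = 0.313), while that of LEF1 did. The TCF genes TCF7, TCF7L1 and TCF7L2, named after their values were seen, were detected on no array.

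Several of these calls were lost without a single array or under another setting. Without Untreated 1 the calls of ETV5 and GATA2 with Wnt3a (adjusted p = 0.0522 and 0.0596) and of MYCN and GATA2 with both ligands (adjusted p = 0.193 and 0.154) were lost, and without Wnt3a 1 those of ETV5 and LEF1 in the combination against Wnt3a (adjusted p = 0.129 and 0.122). JUN was lost without Untreated 1 or 3, any Wnt3a array, Wnt5a 3 or Both 3 (adjusted p = 0.0549 to 0.201) and with undetected probes in the test (0.0995). ETS1 was lost without Untreated 2 or 3 or any Wnt5a array (adjusted p = 0.0521 to 0.121), with no chip term (0.0603) and with undetected probes (0.0763). CREB1 was lost with Wnt5a without Untreated 3 or Wnt5a 2 or 3 (adjusted p = 0.0504 to 0.0632), and with both without Untreated 1, Wnt3a 1 or Both 2 or 3 (adjusted p = 0.0524 to 0.114) or with undetected probes (0.0619). The Wnt5a and combination calls of ETV5 and MYC and the Wnt3a call of MYCN passed in each of 20 alternatives.

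Downstream of the pocket proteins, 2 of 9 tested E2F and DP genes (with RBL1) passed with Wnt5a and 1 with both, beside 5.25% and 7.77% of all tested probes. TFDP2, a dimer partner of E2F factors, fell by 0.36 ± 0.07 with Wnt5a (adjusted p = 0.00655), though its second probe did not pass (-0.18, adjusted p = 0.585). The repressive factor E2F5 fell by 0.29 ± 0.07 with Wnt5a (adjusted p = 0.0306) and by 0.34 ± 0.08 with both (adjusted p = 0.0238). The E2F5 call with Wnt5a was lost without any 1 of the untreated arrays, Wnt5a 1 or Wnt5a 2 (adjusted p = 0.0731 to 0.154). That with both was lost without Untreated 1, Wnt3a 1 or Both 2 (adjusted p = 0.0552 to 0.158). With undetected probes in the test neither E2F5 call passed (adjusted p = 0.0846 and 0.068). E2F1 was detected on no array. Of 21 tested E2F target genes of S phase entry, limma called 0 in each comparison with untreated cells, and 0, 0 and 3 had an unadjusted p under 0.05 for Wnt3a, Wnt5a and both. The median differences of this list were 0.05, -0.01 and -0.06.

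RRM2, a ribonucleotide reductase subunit, fell in the combination against Wnt3a (-0.44 ± 0.10, adjusted p = 0.0276), while its other probe gave 0.08 (adjusted p = 0.684). That other probe was near the limit of detection, at 5.40 with Wnt3a and 5.48 with both, where a fall can hardly show. With no chip term the RRM2 value was -0.16 (adjusted p = 0.699), and the call was lost without Wnt3a 1 or 2 or Both 1 or 3 (adjusted p = 0.0552 to 0.313). It was also lost with the random chip block (adjusted p = 0.352) and with undetected probes in the test (0.0833). Of 9 tested genes of cyclin E, CDK2 and their activators, limma called 0 against untreated cells, with 2, 0 and 1 at an unadjusted p under 0.05. Of 3 tested other G1 inhibitors it also called 0, with 0, 0 and 1. Among these CDKN1A, the p53-induced inhibitor, was at -0.10, -0.04 and -0.29 (adjusted p = 0.713, 0.874 and 0.0873), and CDKN1C and CDKN2A were detected on no array. The last 3 genes, like E2F1, are named here after their values were seen.

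Of 14 tested genes for the turnover of cyclin D and CDKN1B proteins, 0 passed with Wnt3a, 1 with Wnt5a and 0 with both (1, 2 and 2 at an unadjusted p under 0.05). The one that passed was SKP2, which marks CDKN1B for degradation. It rose by 0.27 ± 0.07 with Wnt5a (adjusted p = 0.0359), and its second probe did not pass (0.12, adjusted p = 0.607). That second probe was near the limit of detection, at 5.68 untreated and 5.80 with Wnt5a. The call was lost without Untreated 1 or 2, Wnt5a 2 or 3 or Both 3 (adjusted p = 0.0549 to 0.198). It was also lost with no chip term (adjusted p = 0.192), the random chip block (0.103), median scaling (0.0549) and undetected probes in the test (0.0985). Of 19 tested genes of endomitosis and other cyclins, the spindle checkpoint kinase BUB1 alone passed, with a rise of 0.45 ± 0.06 with Wnt5a (adjusted p = 0.00143) and 0.52 ± 0.07 with both (adjusted p = 0.00148), in each of 20 alternatives. No cyclin of that list passed against untreated cells. The medians of the lists of turnover and of endomitosis genes stayed between -0.01 and 0.05.

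**Figure D5:**
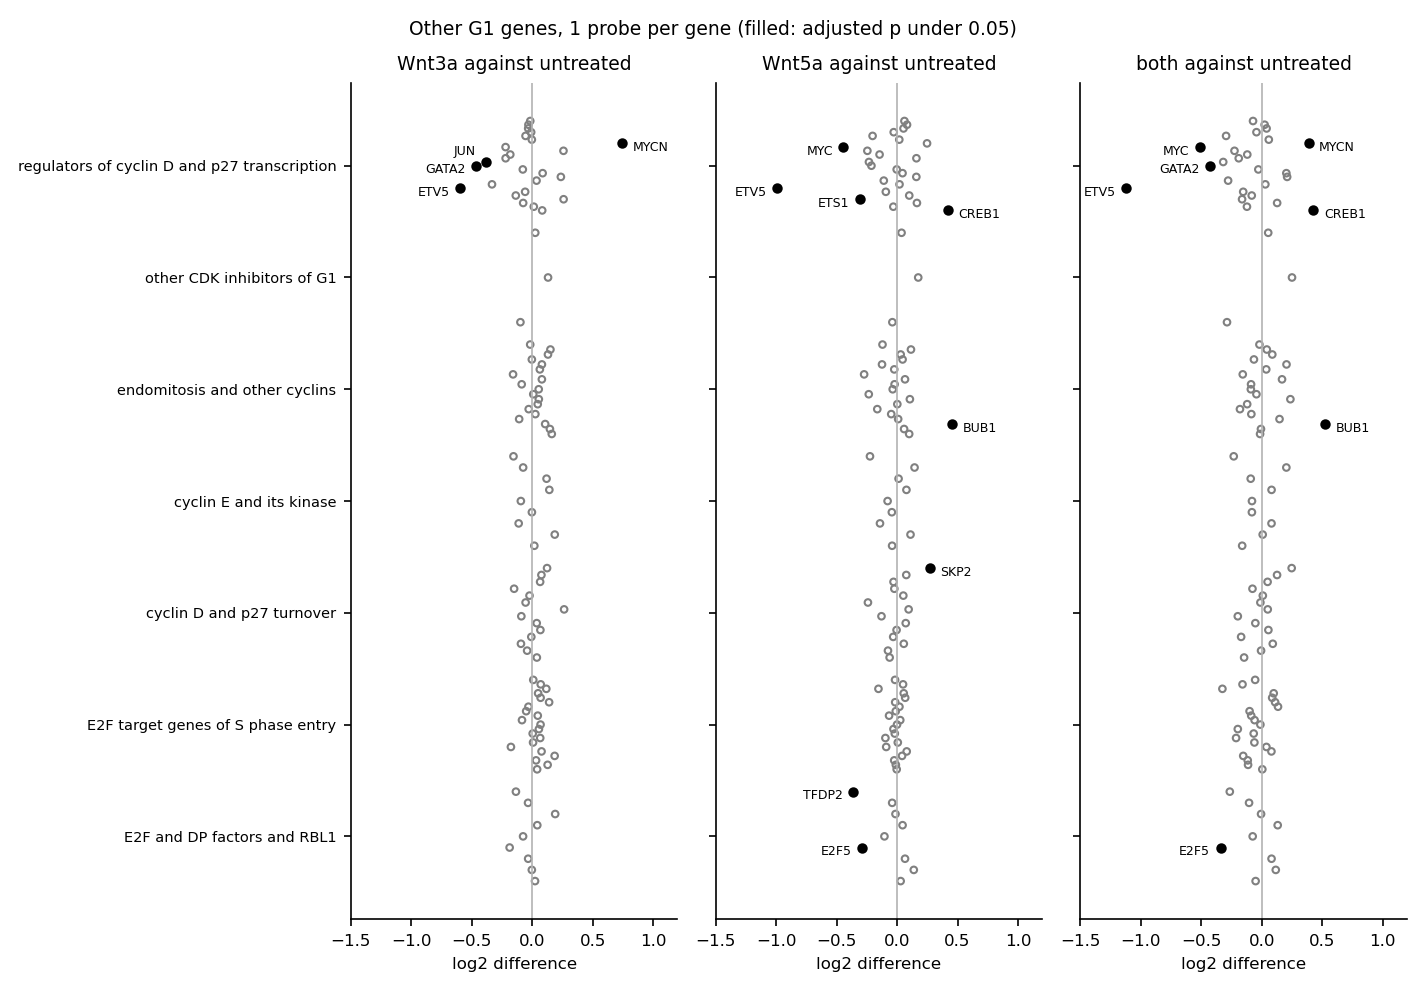
Log2 difference from untreated cells (horizontal axis) for the other G1 genes, 1 point per gene in 7 lists and 3 comparisons, with CDKN1B under its protein name p27. Filled and named points passed the threshold: most are transcription factors of the top row, from ETV5 at -1.12 with both ligands to MYCN at 0.74 with Wnt3a, and no gene of the E2F target list is filled.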

How the data were processed

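The authors deposited a non-normalized intensity for each probe and array together with a detection score, a fraction that is 1 for the brightest probes, so that 1 minus it was used as the detection p. They also deposited a table of log2 values, which kept the rank order of the signals within every array and served as an alternative. Per the submitters' processing notes lumi was used, with no version or role given, and other steps are not given in the sources used here. Signals were corrected with normexp, with negative controls inferred from the detection p (758 implied per array), then shifted by an offset of 16 and brought to a common quantile distribution, and log2 values were taken (neqc, limma 3.58.1, R 4.3.3). Probes with a score above 0.99 on at least 3 arrays were fitted with 4 group means and a fixed chip term over all 12 arrays (lmFit, eBayes, 7 residual and 5.04 prior degrees of freedom), with two-sided p-values adjusted over all 14051 of these by the Benjamini-Hochberg method. The script was tested on simulated data. The number of arrays limits the precision. Nothing in the labels says that the replicates were separate days or passages, so that p-values measure the spread between these arrays.

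Symbols came from the platform annotation, and for CDKN2C and FUT8 from the deposited file. Levels of different probes were not ranked. Lists used the brightest tested probe of a gene, and of each list the up to 3 largest passing rises and falls per treatment were named, plus up to 2 that passed for both ligands against 1. The members and lists were chosen with earlier results of these data known. Alternatives were no background correction, median scaling, the authors' table, no detection filter, detection on all 12 arrays, no chip term, chip as a random block (statmod 1.5.0), a replicate block, averaging of a gene's probes, within-chip values and leaving out each array.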

Additional observations from a re-analysis of the deposited data

How the results depend on the processing

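No value that passed changed sign under these alternatives. Of 1795 alternative values of the 12 probes, 1700 kept their side of the threshold and direction or moved by less than the spread, 50 lost a call, 33 gained one and 12 within-chip values moved by more than the spread between arrays. Of 660 values of the named list genes 570 kept their call and 90 lost it. The number of the 12 probes called with Wnt3a was 2, and became 0 with no detection filter, 1 with detection on all 12 arrays (CCND1 is then not tested) and 1 with no chip term. With Wnt5a it was 3, and became 6 with no background correction, 6 in the authors' log2 table, 5 with the replicate block, 4 with median scaling and 2 with no detection filter. With both ligands it was 4, and became 6 in the authors' table and 3 with no detection filter. It became 5 each with no background correction, median scaling, no chip term and the random chip block. In the F test it was 4, and became 5 with no background correction, 6 in the authors' table and 3 with no detection filter. For both ligands against Wnt3a it was 2, and became 3 with no background correction, 4 in the authors' table and 0 with no detection filter. It became 1 each with detection on all 12 arrays, no chip term, the random chip block and the replicate block. For Wnt5a against Wnt3a it was 1, and became 3 with no background correction, 2 in the authors' table, and 0 with no detection filter, no chip term or the random chip block. Leaving out 1 array gave 0 to 2 for Wnt3a, 2 to 4 for Wnt5a, 2 to 5 for both, 0 to 2 for both against Wnt3a, 0 to 0 for both against Wnt5a, 0 to 2 for Wnt5a against Wnt3a, 0 to 0 for the interaction and 2 to 4 for the F test. Over all probes, Wnt3a calls went from 213 to 352 with no background correction, 346 in the authors' table and 119 with no detection filter, and Wnt5a calls from 737 to 456 with no detection filter. With no detection filter the calls for both ligands went from 1092 to 520, those for Wnt5a against Wnt3a from 829 to 515 and those of the F test from 1236 to 735. Calls for both against Wnt3a went from 648 to 1108 with no background correction, 991 in the authors' table, 269 with no filter, 397 with no chip term and 413 with the random block. With no background correction the calls for both against Wnt5a went from 17 to 34 and those of the interaction from 0 to 8, with 1 in the authors' table. The replicate numbers were not shown to pair the arrays, although same-numbered pairs leaned higher. Residuals of 18 same-numbered pairs were correlated at -0.41 to 0.41 (median 0.12, 9 of the 18 over 0.1). Those of 36 pairs of different number were correlated at -0.58 to 0.27 (median -0.04, 9 of the 36 over 0.1). Of the 12 arrays 6 correlated best with their own number, and with the replicate block JUN no longer passed with Wnt3a (adjusted p = 0.0522). Nor did CCND2 probe 2 and MYC for both against Wnt3a (limma adjusted p = 0.0598 and 0.0628). By contrast CDK6 and CDKN2D passed with Wnt5a under that block (limma adjusted p = 0.0455 and 0.0327). Over all probes the Wnt5a calls then went from 737 to 886. CCND1 and RB1 lie within 2 times of the lowest detected signal, which limits how well their sizes are measured.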
